A study of Homo sapiens with 24 samples.

Results

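The genes described here are 42 transporters, endocytic receptors and surface enzymes of the kidney proximal tubule, the nephron segment that recovers most of the filtered water, salt, glucose, phosphate, amino acids and protein. They were listed by symbol in 11 role groups and looked up in a table of estimated counts with 65180 Ensembl gene IDs, where each of the 42 symbols matched 1 ID. The table holds 24 poly(A) RNA-seq libraries of HK-2, an immortalised human proximal tubular cell line, so every group is a model of 1 line in culture. Of the 42 genes, 28 were expressed, meaning a mean of at least 1 CPM (a count scaled to 1000000 counts of the library) in at least 1 of the 6 groups, 6 were low, meaning that they passed the filter for testing without reaching that mean, and 8 were not expressed. A total of 34 genes were tested in at least 1 of the 2 experiments.

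The cells of every group were serum-deprived overnight and then treated for 24 h. The normoxic solvent group (5 libraries) received the solvents alone, which were DMSO at 0.0001%, HCl at 4 µM and BSA at 0.0001%. The normoxic BAY group (3 libraries) received BAY 60-2770, labelled an sGC activator, that is, a drug-like compound acting on soluble guanylate cyclase, the source of cyclic GMP in the cell. The labels give its dose as 1 mM, and since a dose of that unit is doubtful for such a compound, no dose dependence is read from it. The TGF-β1 group (5 libraries) received 2 ng/mL of transforming growth factor β1 in normoxia, and the group with both agents (5 libraries) received TGF-β1 together with BAY 60-2770. The hypoxic solvent group and the hypoxic BAY group (3 libraries each) were kept at 0.3% oxygen. The oxygen of the normoxic incubator is not given in the sources used here.

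In the proximal tubule, sodium-coupled carriers of the brush border take up solutes from the filtrate, and facilitative carriers such as GLUT2 and the bicarbonate cotransporter NBCe1 pass them on to the blood. Megalin, encoded by LRP2, and cubilin, encoded by CUBN, take up filtered protein by endocytosis together with their partners amnionless (AMN) and DAB2. Organic anion and cation transporters and ABC pumps secrete drugs and waste products, and ectoenzymes such as DPP4 and gamma-glutamyl transferase mark the brush border.

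Library totals ranged from 78862528 to 105571250 estimated counts. The controls of the treatments moved as labelled, with 6 of 6 hypoxia target genes higher in hypoxia and 6 of 6 TGF-β1 target genes higher with TGF-β1. Of all genes, 29.2% and 29.5% were called higher in these comparisons. The lists were chosen with earlier results of these data known, so these counts are no independent check of the labels. Within groups, the libraries of normoxic solvent and of both TGF-β1 groups fell into 2 sets along a component that held 21.8% of their within-group variance. Set 1 held solvent replicates 1, 2 and 5 and replicates 1 and 2 of both TGF-β1 groups, and set 2 held solvent replicates 3 and 4 and replicates 3 to 5 of both TGF-β1 groups. The labels used here do not say what separated the sets. The normoxic BAY and the hypoxic libraries were not scored on this component, so which set they resemble is not known. Calls against the solvent group that were lost within a set are therefore given beside the gene. The labels call the libraries biological replicates without saying what separates them, so each p-value reflects only how much these cultures varied. In bulk RNA, fewer cells that carry a transcript and less of it per cell cannot be told apart.

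Under normoxic solvent, 25 of the 42 genes had a mean of at least 1 CPM and 15 had at least 10 CPM. Compared per kilobase of exon, 2 of the 4 brush border enzymes led, DPP4 at 123 CPM per kb and GGT1 at 44.7 CPM per kb, while MME was at 5.47 and ANPEP at 0.0628 CPM per kb. The phosphate carrier SLC20A1 followed at 19.7, the bicarbonate cotransporter SLC4A4 at 15.2, the organic anion carrier SLCO4C1 at 12.9, the pumps ABCC4 and ABCB1 at 12.5 and 10.8, and the glucose carrier SLC2A2 at 10.5 CPM per kb. The receptors stood far below them, CUBN at 0.0363 and LRP2 at 0.0076 CPM per kb, while their partners DAB2 and AMN stood at 5.1 and 1.98 CPM per kb. Set against the label of the cells, many proximal tubule genes were present, while the water channel AQP1 was at 0.00655 CPM per kb and several defining secretory carriers were not expressed.

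The 8 genes that were not expressed were spread over 5 role groups. SLC22A6, the organic anion transporter OAT1, had 0 counts in all 24 libraries, which allows a level of up to 0.00134 CPM over the pooled libraries, counting error only. The related SLC22A8 (OAT3) had 10 counts in all libraries together, SLC47A1 (the extrusion transporter MATE1) 5, SLC13A1 (a sulfate cotransporter) 3, SLC5A12 (a lactate cotransporter) 13 and SLC5A1 (the glucose cotransporter SGLT1) 19. SLC22A2, the cation transporter OCT2, reached at most 0.117 CPM in any library, and SLC6A19, the neutral amino acid transporter, at most 0.0436 CPM. The low genes were LRP2, SLC34A3, SLC47A2, SLC13A3, SLC7A9 and ANPEP, none of which exceeded 0.706 CPM in any library.

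**Figure D1:**
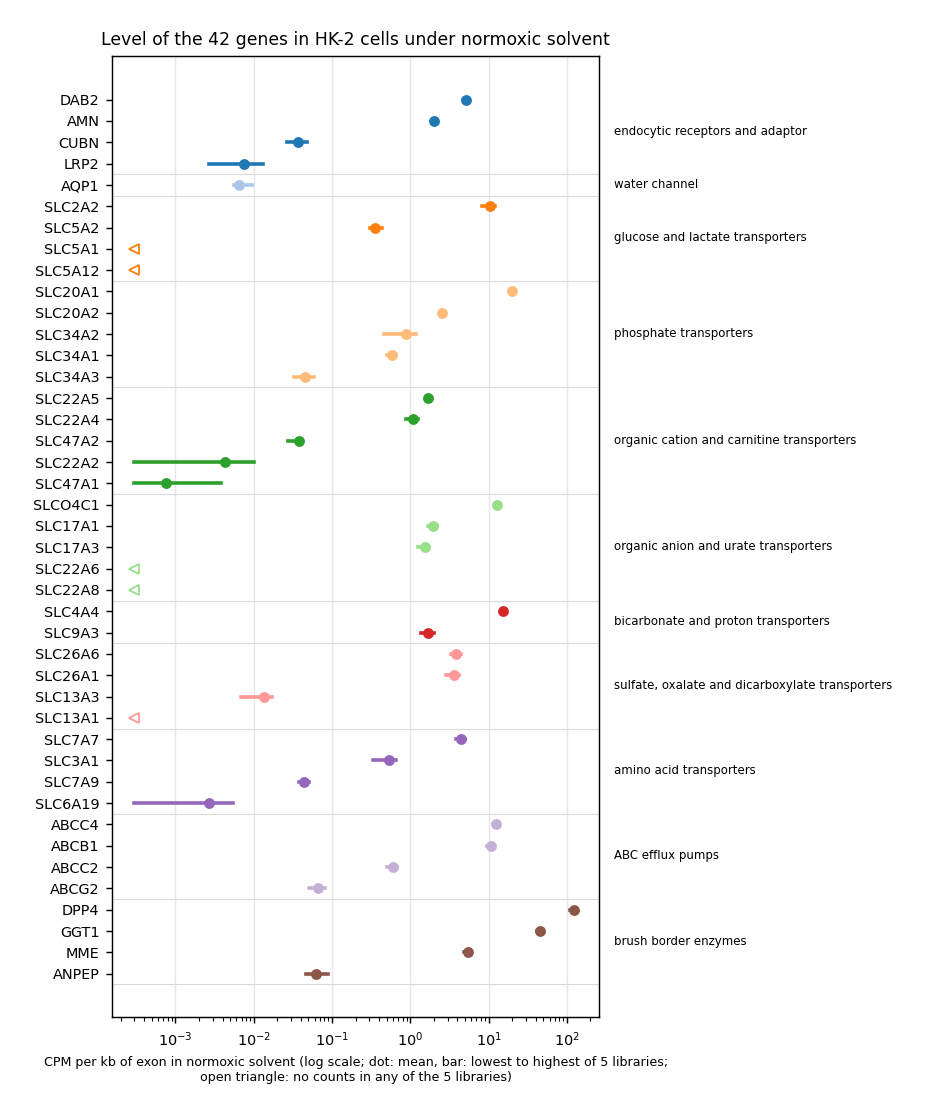
Mean CPM per kilobase of exon in the 5 normoxic solvent libraries on a log axis, for each of the 42 genes grouped by role, with bars from the lowest to the highest library and open triangles for genes without a count in these libraries; bars that reach the position of the triangles include a library at 0. DPP4 stood highest at 123 and the receptors CUBN and LRP2 at 0.0363 and 0.0076 CPM per kb.

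TGF-β1 lowered most of the expressed genes and raised a few. By edgeR's quasi-likelihood test with Benjamini-Hochberg adjustment over all 21639 genes of the fit, 23 of the 34 genes tested fell and 6 rose, beside 62.0% of all genes called, 29.5% higher and 32.5% lower. The median log2 fold change of the 34 was -1.1, beside -0.04 over all genes tested, and 23 of the 34 were called with at least a 2-fold change, beside 17.0% of all genes. The groups did not overlap in 27 of the 34, beside 50.8% of all genes. AQP1 is counted among those that rose, changed at least 2-fold and did not overlap. It passed the filter for testing only through the TGF-β1 groups, where it was high. LRP2, counted among the falls, passed it only through the groups without TGF-β1, where it was higher. Hypoxia gave 6 higher and 18 lower of 33 tested, beside 60.8% of all 21316 genes called, 29.2% higher and 31.6% lower, with a median of -0.2 beside -0.02. In hypoxia the groups did not overlap in 21 of the 33, beside 57.3% of all genes, and 8 were called with at least a 2-fold change, beside 13.4%. SLC13A3, counted among the falls in hypoxia, passed the filter only through the normoxic groups, where it was higher. BAY in normoxia gave 11 higher and 5 lower of 33, beside 43.9% of all genes, 20.6% higher and 23.3% lower, with a median of 0.17 beside 0.0. There 16 of the 33 did not overlap, beside 45.0% of all genes, and 2 were called with at least a 2-fold change, beside 5.86%. BAY in hypoxia gave 3 higher and 7 lower of 33, beside 37.9% of all genes, 16.5% higher and 21.4% lower. BAY on top of TGF-β1 gave 4 higher and 12 lower of 34, beside 29.5% of all genes, 13.9% higher and 15.6% lower, and 5 of the 34 were called with at least a 2-fold change, beside 2.9%. For BAY in hypoxia the count and its split depended on the libraries fitted. Leaving out the second hypoxic solvent library left 6 genes called in place of 10, beside 31.6% of all genes. The replicate block gave 6 higher and 5 lower, beside 36.9%, and a fit of the hypoxic groups alone gave 7 higher and 6 lower of 32, beside 39.0%. With the normoxic libraries of set 1 alone in the fit it gave 8 higher and 8 lower of 32, beside 43.0%, and with those of set 2 alone 8 higher and 6 lower of 33, beside 40.7%. The normoxic solvent libraries are the controls of the hypoxia, BAY and TGF-β1 comparisons alike, and the TGF-β1 libraries enter 2 comparisons, so the comparisons are given side by side and not correlated.

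Calls were also gained within the library sets. Against set 1 alone, BAY in normoxia gave 20 genes called, beside 49.8% of all genes, and 15 of the 20 were shared with the comparison over all libraries. The others were ABCC2 (-0.35, adjusted p 0.014), DPP4 (-0.19, adjusted p 0.000837), MME (-0.25, adjusted p 0.00309), SLC34A2 (-1.09, adjusted p 0.000112) and SLC9A3 (0.3, adjusted p 0.00144). Against set 2 alone it gave 15 genes called, beside 33.7% of all genes. Of the 15, 13 were shared, and the others were SLC22A4 (0.41, adjusted p 0.00494) and SLC5A2 (-0.53, adjusted p 0.0491). Set 2 also gave calls for GGT1 in hypoxia (0.22, adjusted p 0.00185), for SLC47A2 with TGF-β1 (-1.36, adjusted p 0.0119) and, with BAY on TGF-β1, for SLC17A3 (1.55, adjusted p 0.00312) and SLC22A4 (0.21, adjusted p 0.00649).

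**Figure D2:**
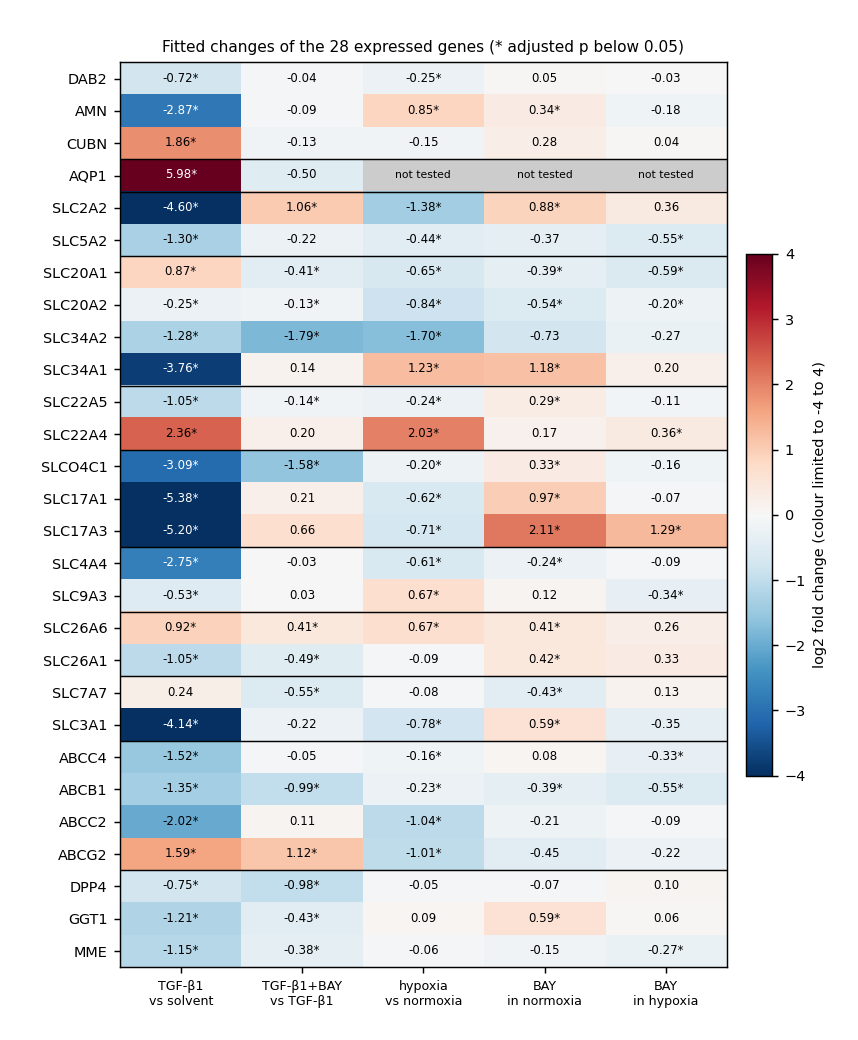
Fitted log2 fold changes of the 28 expressed genes (rows, grouped by role) in the 5 comparisons of 2 groups (columns), with a star where the adjusted p was below 0.05. The TGF-β1 column runs from -5.38 for SLC17A1 to 5.98 for AQP1, and the BAY columns hold smaller changes of both signs. AQP1 passed the filter for testing only through the TGF-β1 groups, where it was high, and the size of its rise is poorly fixed.

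Promoter windows are shown for the 3 genes of at least 1 CPM with the largest called rises in hypoxia, SLC22A4, SLC34A1 and AMN, to set the letters around their start sites beside those changes. RefSeq sequence on build GRCh38.p14 was available for 37 of the 42 genes, and each window is the 250 bases before the annotated start, on the strand of the gene. The hypoxia response core ACGTG, searched on both strands, was in 18.5% of all 35116 promoters of this length and in 5 of the 37 (13.5%), namely AMN, DAB2, DPP4, SLC20A1 and SLC22A4. In SLC22A4, AMN, DPP4 and SLC20A1 it occurs as CACGTG, in which both strands hold the core. Of the genes with the core, SLC20A1 and DAB2 fell in hypoxia and DPP4 was not called there, while SLC34A1, which rose, lacks it. A link between these letters and the changes was not tested. The motif GTTAAT, again on both strands, was in 6.23% of all promoters and in 6 of the 37 (16.2%), namely DAB2, SLC34A1 and, among genes not expressed here, SLC13A1, SLC22A6, SLC5A1 and SLC6A19. In SLC34A1 the match starts 121 and 93 bases before the start. The core TGACG of the cyclic AMP response element was in 21.2% of all promoters and in 7 of the 37 (18.9%). The HNF4 motif CAAAGTCCA was in none of the 37. Capitals mark ACGTG on either strand in the first 2 windows and GTTAAT on either strand in the last, a match is a match of letters only, and the windows lie at chr5:132294144-132294393, chr14:102922413-102922662 and chr5:177384184-177384433, all on the plus strand.
SLC22A4: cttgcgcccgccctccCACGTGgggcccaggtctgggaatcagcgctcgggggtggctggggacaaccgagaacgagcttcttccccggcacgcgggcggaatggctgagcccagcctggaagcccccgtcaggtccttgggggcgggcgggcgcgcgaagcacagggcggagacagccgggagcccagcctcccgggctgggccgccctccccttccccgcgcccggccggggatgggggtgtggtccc
AMN: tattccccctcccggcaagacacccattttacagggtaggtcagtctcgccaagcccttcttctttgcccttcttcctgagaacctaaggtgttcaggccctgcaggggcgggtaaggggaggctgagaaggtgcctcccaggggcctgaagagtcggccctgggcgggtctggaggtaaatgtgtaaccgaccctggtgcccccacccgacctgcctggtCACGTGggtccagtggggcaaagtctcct
SLC34A1: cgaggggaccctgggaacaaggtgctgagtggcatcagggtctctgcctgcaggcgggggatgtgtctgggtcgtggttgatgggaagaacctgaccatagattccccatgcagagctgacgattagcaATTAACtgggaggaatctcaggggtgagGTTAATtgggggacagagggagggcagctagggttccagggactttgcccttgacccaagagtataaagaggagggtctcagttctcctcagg

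The endocytic receptors split under TGF-β1: CUBN rose while AMN and DAB2 fell. CUBN, which lies at chr10:16823966-17129817, stood at 0.545, 0.405, 0.639, 0.461 and 0.357 CPM in the solvent libraries and at 1.87, 2.35, 1.77, 1.54 and 1.53 CPM with TGF-β1 (log2 fold change 1.86, SE 0.18, adjusted p 4.29e-08). Every TGF-β1 library was above every solvent library, and with AQP1 and ABCG2 it was one of the 3 expressed genes under 1 CPM in solvent. AMN, the membrane anchor that cubilin needs to reach the surface, stood at 8.71, 9.07, 9.64, 9.82 and 8.83 CPM in solvent and at 1.57, 1.38, 1.45, 1.12 and 1.01 CPM with TGF-β1 (-2.87, SE 0.118, adjusted p 2.18e-13). The groups did not overlap. In hypoxia AMN was instead high, at 14.8, 17.0 and 18.6 CPM (0.85, SE 0.0845, adjusted p 2.92e-07), and in normoxic BAY at 12.2, 11.8 and 10.9 CPM (0.34, SE 0.0856, adjusted p 0.00414). The BAY call for AMN was lost against solvent set 2 alone (0.25, adjusted p 0.0808). AMN overlaps CDC42BPB on the opposite strand, a gene at 208 CPM over all libraries, and the counting is not stated to use strand, so its reads are uncertain.

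DAB2, the adaptor that links megalin to clathrin coats, stood at 41.6, 41.2, 36.3, 37.2 and 40.6 CPM in solvent and at 27.5, 26.9, 22.0, 25.2 and 22.4 CPM with TGF-β1 (-0.72, SE 0.0699, adjusted p 4.54e-08). The 5 treated libraries were all lower, and the fall was small beside that of AMN. Hypoxic DAB2 was at 35.6, 34.8 and 30.0 CPM (-0.25, adjusted p 0.00476), just below the lowest solvent library, and this call was lost against solvent set 2 (-0.14, adjusted p 0.203). LRP2, a low gene, stood at 0.163, 0.104, 0.216, 0.0923 and 0.0433 CPM in solvent and at 0.0553, 0, 0.0116, 0 and 0 CPM with TGF-β1 (-3.14, SE 0.785, adjusted p 0.00189). The TGF-β1 libraries held 5, 0, 1, 0 and 0 counts, so the size is poorly fixed. LRP2 passed the filter of this experiment only through the groups without TGF-β1, where it was higher. The groups overlapped by 1 library, and against solvent within set 1 the value was -1.91 with an adjusted p of 0.116. In hypoxic BAY, LRP2 stood at 0.589, 0.446 and 0.706 CPM against 0.172, 0.181 and 0.151 CPM in hypoxic solvent (1.77, SE 0.398, adjusted p 0.00226). Its highest levels in the series were thus in hypoxic BAY, still under 1 CPM.

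AQP1, the water channel of the proximal tubule, went from near absence to a low level with TGF-β1. It stood at 0.0191, 0.0208, 0.0197, 0.0205 and 0.0325 CPM in the solvent libraries and at 1.54, 2.0, 1.62, 1.36 and 1.21 CPM with TGF-β1 (log2 fold change 5.98, SE 0.271, adjusted p 8.55e-13). The groups were far apart, but the gene passed the filter for testing only through the TGF-β1 groups, where it was high, and it was not tested in the hypoxia experiment. The solvent libraries held 2, 2, 2, 2 and 3 counts of AQP1, so the size of the rise is poorly fixed. With both agents AQP1 was at 1.12, 1.49, 0.736, 1.01 and 1.03 CPM, and this difference from TGF-β1 alone missed the threshold (-0.5, adjusted p 0.0528). Within each library set every library with both agents was below every TGF-β1 library, and with the set as an additive term the value was -0.51 with an adjusted p of 0.00631. The sets taken singly gave -0.44 and -0.57 (adjusted p 0.281 and 0.0656).

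SLC2A2 was one of the genes that TGF-β1 lowered most, and hypoxia lowered it too. It encodes GLUT2, the facilitative carrier that passes glucose on to the blood, and lies at chr3:170996348-171026750. Its levels were 40.2, 39.6, 30.7, 27.8 and 41.3 CPM in solvent and 1.84, 1.61, 1.05, 1.9 and 1.27 CPM with TGF-β1 (-4.60, SE 0.148, adjusted p 2.12e-14). In hypoxia it stood at 14.5, 14.6 and 12.8 CPM (-1.38, SE 0.134, adjusted p 1.28e-06). Both treated groups lay wholly below the solvent libraries, the TGF-β1 libraries by an order of magnitude.

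BAY moved SLC2A2 the other way. In normoxia the BAY libraries were at 64, 65.2 and 67.6 CPM, above every solvent library (0.88, SE 0.121, adjusted p 7.57e-05). With both agents SLC2A2 stood at 3.51, 3.44, 3.03, 2.86 and 2.97 CPM (1.06 against TGF-β1 alone, SE 0.149, adjusted p 3.25e-05), all above the TGF-β1 libraries and all far below solvent. In hypoxic BAY the levels were 18.3, 20.7 and 15.1 CPM (0.36, adjusted p 0.0732), and with the replicate number as a block, which pairs the hypoxic libraries, the value was 0.35 with an adjusted p of 0.0085.

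SLC5A2, the sodium-glucose cotransporter SGLT2 and target of the gliflozins, was near 1 CPM throughout. Solvent libraries stood at 1.38, 1.43, 1.96, 1.56 and 1.58 CPM and TGF-β1 libraries at 0.742, 0.558, 0.741, 0.632 and 0.657 CPM (-1.3, SE 0.147, adjusted p 3.41e-07), with no overlap. In hypoxia it was at 1.26, 1.18 and 1.1 CPM (-0.44, adjusted p 0.0291), a call lost against solvent set 1 (-0.31, adjusted p 0.121), without solvent replicate 3 (-0.34, adjusted p 0.0701) and without any 1 of the hypoxic libraries (-0.40 to -0.47, adjusted p 0.0524 to 0.0966). In hypoxic BAY it was at 0.796, 0.669 and 0.967 CPM (-0.55, adjusted p 0.0272), and with the replicate block the value was -0.56 with an adjusted p of 0.0509. Its gene overlaps RUSF1 on the opposite strand, at 106 CPM over all libraries, so its reads are uncertain.

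The phosphate transporters did not move as 1 group, and the directions did not divide by carrier type. SLC34A1, the brush border carrier NaPi-IIa that recovers most phosphate in the kidney, stood at 2.71, 2.65, 2.94, 2.54 and 2.25 CPM in solvent and at 0.332, 0.129, 0.231, 0.176 and 0.129 CPM with TGF-β1 (-3.76, SE 0.2, adjusted p 8.51e-12). In hypoxia it was at 6.42, 6.27 and 5.9 CPM (1.23, SE 0.0818, adjusted p 2.84e-09). In normoxic BAY it was at 5.87, 6.0 and 5.78 CPM (1.18, SE 0.0817, adjusted p 1.67e-08). Hypoxia and BAY thus each took the gene above every solvent library, while TGF-β1 took it below all of them. In hypoxic BAY the levels were 7.34, 7.06 and 7.12 CPM, a difference from hypoxic solvent that did not pass the test (0.2, adjusted p 0.103).

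SLC34A2, the type II carrier best known from lung and intestine, fell in hypoxia and with TGF-β1, and its solvent libraries differed by set. They stood at 5.93, 5.32 and 5.81 CPM in set 1 and at 2.97 and 2.36 CPM in set 2. With TGF-β1 the levels were 2.65 and 2.62 CPM in set 1 and 1.42, 1.52 and 1.38 CPM in set 2 (-1.28, SE 0.329, adjusted p 0.00269). The groups overlapped over all libraries and not within a set, where the values were -1.14 and -0.92 (adjusted p 1.64e-07 and 0.000155). Adding BAY to TGF-β1 took SLC34A2 to 0.84, 0.892, 0.368, 0.241 and 0.388 CPM (-1.79, SE 0.352, adjusted p 0.000817), below every TGF-β1 library. In hypoxia it stood at 1.57, 1.63 and 0.952 CPM (-1.7, SE 0.305, adjusted p 0.000266), and this fall was -2.03 against solvent set 1 and -0.94 against set 2. SLC34A3, the third type II carrier, was low, with means between 0.0704 and 0.202 CPM in the 6 groups. Its rise in hypoxia (0.91, adjusted p 0.0283) rested on single libraries, with values of 0.81 and 0.72 (adjusted p 0.107 and 0.14) without the first or the second hypoxic solvent library and 0.83 (adjusted p 0.0569) without solvent replicate 5, and it was not called against either solvent set (0.93 each, adjusted p 0.0608 and 0.11).

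SLC20A1 (PiT-1), a widely expressed sodium-phosphate carrier, rose with TGF-β1 and fell in every other comparison. It stood at 109, 111, 108, 110 and 111 CPM in solvent and at 238, 240, 186, 189 and 192 CPM with TGF-β1 (0.87, SE 0.0816, adjusted p 3.71e-08). Hypoxia gave 69.9, 70.6 and 71.6 CPM (-0.65, SE 0.033, adjusted p 1.25e-10), and normoxic BAY gave 84.7, 81.1 and 84.4 CPM (-0.39, SE 0.0326, adjusted p 1.22e-07). The solvent libraries spanned a narrow range, and none overlapped with a treated group. BAY lowered it further in hypoxia, to 47.0, 49.6 and 45.8 CPM (-0.59, SE 0.0366, adjusted p 7.44e-09), and on TGF-β1, to 180, 181, 138, 138 and 140 CPM (-0.41, SE 0.081, adjusted p 0.000817).

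SLC20A2 (PiT-2), its relative, fell in all 5 comparisons. SLC20A2 overlaps SMIM19 on the opposite strand, at 5.77 CPM over all libraries, so its reads are uncertain. It stood at 17.4, 17.0, 16.6, 16.3 and 17.3 CPM in solvent, at 9.72, 10.3 and 8.55 CPM in hypoxia (-0.84, SE 0.0621, adjusted p 8.68e-09) and at 11.5, 12.1 and 11.1 CPM in normoxic BAY (-0.54, SE 0.0611, adjusted p 3.43e-06). With TGF-β1 it was at 14.5, 15.2, 14.7, 15.1 and 14.1 CPM, a small fall without overlap (-0.25, SE 0.041, adjusted p 2.8e-05). The falls with BAY in hypoxia (8.36, 7.85 and 8.85 CPM, -0.20, adjusted p 0.0303) and on TGF-β1 (13.7, 13.7, 13.4, 13.6 and 12.1 CPM, -0.13, adjusted p 0.0224) were smaller. The former was -0.20 with an adjusted p of 0.0673 under the replicate block, and was lost without the first or second library of either hypoxic group (-0.14 to -0.20, adjusted p 0.0744 to 0.156). The latter was lost without TGF-β1 replicate 2 or 4 (-0.12 each, adjusted p 0.0509 and 0.0573) or without replicate 5 of both agents (-0.09, adjusted p 0.0833).

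SLC22A4 was the expressed gene of the set with the largest rise in hypoxia, and TGF-β1 raised it to a like level. It encodes the ergothioneine and carnitine transporter OCTN1 and lies at chr5:132294443-132344206. The solvent libraries were at 3.2, 2.95, 2.35, 2.47 and 3.38 CPM and the hypoxic ones at 11.6, 11.3 and 12.7 CPM (2.03, SE 0.101, adjusted p 1.08e-10). With TGF-β1 it stood at 18.0, 16.9, 13.3, 13.8 and 14.1 CPM (2.36, SE 0.111, adjusted p 1.5e-12). Each treated library was well above the highest solvent library. In hypoxic BAY it was at 15.1, 13.9 and 17.1 CPM (0.36, adjusted p 0.0189), a call lost without hypoxic BAY replicate 3 (0.28, adjusted p 0.0956) or without the first or second hypoxic solvent library (0.34 and 0.33, adjusted p 0.0619 and 0.076). SLC22A4 overlaps P4HA2, at 172 CPM over all libraries, and MIR3936HG on the opposite strand, so its reads are uncertain where strand was not used.

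Its neighbour SLC22A5, at chr5:132369752-132395614, encodes the carnitine transporter OCTN2 and moved in the opposite direction in hypoxia and with TGF-β1. SLC22A5 overlaps MIR3936HG on the opposite strand, at 5.95 CPM over all libraries, so its reads are uncertain. It stood at 21.2, 21.1, 21.4, 21.5 and 20.7 CPM in solvent and at 11.1, 11.3, 10.7, 10.5 and 9.51 CPM with TGF-β1 (-1.05, SE 0.0463, adjusted p 6.18e-13). In hypoxia it was at 19.0, 18.5 and 16.9 CPM (-0.24, adjusted p 0.00069), and in normoxic BAY at 25.9, 26.0 and 25.5 CPM (0.29, SE 0.0497, adjusted p 0.000194). All of these groups lay outside the range of the solvent libraries. With both agents it stood at 9.81, 10.3, 8.74, 8.84 and 9.87 CPM (-0.14, adjusted p 0.0266), overlapping TGF-β1 alone, and the call was lost without any 1 of 5 libraries, TGF-β1 replicates 1, 2 and 3 and both-agents replicates 3 and 4 (-0.12 to -0.14, adjusted p 0.0522 to 0.0757). SLC47A2, the extrusion transporter MATE2-K, was low: its mean was 0.251 CPM in solvent, 0.112 in hypoxia (-1.17, adjusted p 0.00593), 0.148 with TGF-β1 and 0.292 CPM with both agents (0.99 against TGF-β1, adjusted p 0.0383). The last call for SLC47A2 was lost without any 1 of 5 libraries, TGF-β1 replicates 3, 4 and 5 and both-agents replicates 1 and 2 (0.69 to 0.98, adjusted p 0.0677 to 0.14).

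All 3 expressed organic anion and urate transporters fell with TGF-β1, beside 32.5% of all genes. SLC17A1 and SLC17A3 had the 2 largest falls of those tested among the 42 genes. SLC17A1 and SLC17A3, the urate and phosphate carriers NPT1 and NPT4, are neighbours at chr6:25782897-25832059 and chr6:25833066-25882286. SLC17A1 stood at 4.48, 4.07, 3.41, 3.4 and 4.5 CPM in solvent and at 0.111, 0.172, 0.0579, 0.0702 and 0.0754 CPM with TGF-β1 (-5.38, SE 0.334, adjusted p 1.29e-10). SLC17A3 stood at 6.08, 6.22, 4.5, 4.45 and 6.16 CPM in solvent and at 0.409, 0.15, 0.0463, 0.0351 and 0.118 CPM with TGF-β1 (-5.2, SE 0.372, adjusted p 1.66e-09). Neither gene was near its solvent range in any TGF-β1 library. SLCO4C1, an organic anion carrier of the basolateral membrane, started much higher, at 68.1, 68.0, 71.3, 69.6 and 68.1 CPM, and stood at 9.51, 9.31, 8.18, 7.47 and 7.62 CPM with TGF-β1 (-3.09, SE 0.0724, adjusted p 8.1e-17). Adding BAY took SLCO4C1 further down to 2.65, 3.33, 2.54, 3.04 and 2.34 CPM (-1.58, SE 0.0781, adjusted p 4.92e-11), below every TGF-β1 library.

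BAY in normoxia raised all 3 of these carriers, beside 20.6% of all genes higher, and SLC17A3 rose the most of those tested among the 42 genes. SLC17A3 stood at 23.2, 23.8 and 23.5 CPM in the BAY libraries (2.11, SE 0.148, adjusted p 6.43e-08). SLC17A1 was at 8.22, 7.43 and 7.58 CPM (0.97, SE 0.125, adjusted p 1.31e-05), and SLCO4C1 at 85.0, 85.5 and 88.6 CPM (0.33, SE 0.0576, adjusted p 0.00024). No BAY library overlapped with solvent for any of the 3. In hypoxia alone all 3 were called lower, beside 31.6% of all genes. SLC17A3 stood at 3.52, 3.91 and 2.68 CPM (-0.71, adjusted p 0.00156), SLC17A1 at 2.95, 2.87 and 2.0 CPM (-0.62, adjusted p 0.000743) and SLCO4C1 at 61.8, 63.3 and 57.5 CPM (-0.2, adjusted p 0.00831). The hypoxia calls of SLC17A3 and SLCO4C1 were lost against solvent set 2 (-0.41, adjusted p 0.0813) and without the third hypoxic solvent library (-0.16, adjusted p 0.0538), respectively. In hypoxic BAY, SLC17A3 was at 9.86, 8.73 and 6.28 CPM (1.29, SE 0.178, adjusted p 5.8e-05), above all hypoxic solvent libraries.

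**Figure D3:**
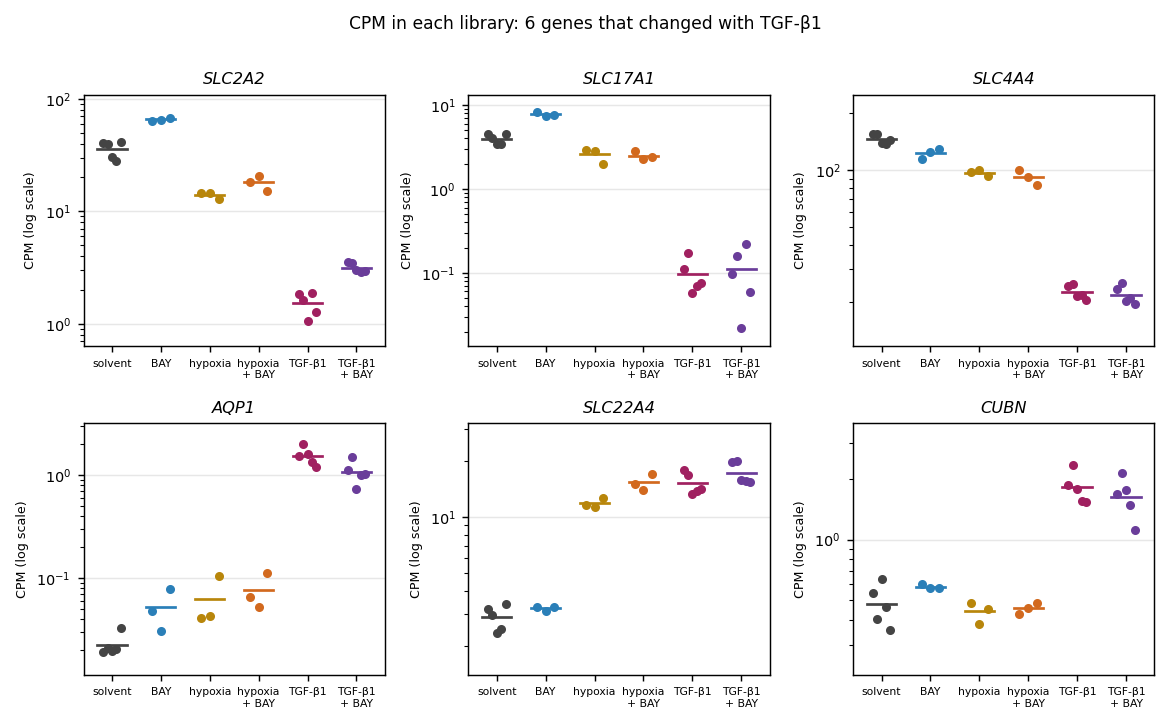
CPM in each of the 24 libraries on log axes (points, with group means as lines) for SLC2A2, SLC17A1, SLC4A4, AQP1, SLC22A4 and CUBN. With TGF-β1, the upper 3 genes lay below every solvent library and the lower 3 above every one, for example SLC2A2 at 1.05 to 1.9 CPM against 27.8 to 41.3 CPM.

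SLC4A4, the bicarbonate cotransporter NBCe1 of the basolateral membrane, was among the most abundant carriers and fell in 3 comparisons. It stood at 156, 156, 138, 137 and 144 CPM in solvent and at 24.4, 24.8, 21.6, 21.7 and 20.4 CPM with TGF-β1 (-2.75, SE 0.0687, adjusted p 2.48e-16). Hypoxia gave 97.2, 99.3 and 93.0 CPM (-0.61, SE 0.0591, adjusted p 1.95e-07). Both groups lay below all solvent libraries. Normoxic BAY gave 114, 125 and 129 CPM (-0.24, adjusted p 0.00314), a call lost against solvent set 2 (-0.17, adjusted p 0.0694). SLC9A3, the sodium-proton exchanger NHE3 of the brush border, rose in hypoxia, from 8.12, 8.97, 11.1, 11.3 and 7.81 CPM in solvent to 15.9, 14.3 and 15.6 CPM (0.67, SE 0.112, adjusted p 9.33e-05). With TGF-β1 it stood at 5.45, 5.76, 7.59, 7.55 and 7.46 CPM (-0.53, SE 0.157, adjusted p 0.00667), below every solvent library. Its fall in hypoxic BAY, to 11.7, 12.4 and 12.4 CPM (-0.34, adjusted p 0.0496), was lost without any 1 of the 6 hypoxic libraries (-0.31 to -0.38, adjusted p 0.0589 to 0.143). SLC9A3 overlaps EXOC3 and an antisense gene, so its reads are uncertain.

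The 2 expressed anion exchangers of the SLC26 family went opposite ways with TGF-β1. SLC26A6, the chloride-oxalate exchanger of the brush border, stood at 22.4, 21.0, 27.9, 27.2 and 22.0 CPM in solvent and at 48.0, 46.5, 47.2, 47.0 and 47.6 CPM with TGF-β1 (0.92, SE 0.0658, adjusted p 6.01e-10). BAY raised SLC26A6 on TGF-β1, to 57.1, 62.1, 61.3, 63.1 and 65.8 CPM (0.41, SE 0.0647, adjusted p 9.45e-05), and in normoxia, to 32.5, 31.3 and 31.9 CPM (0.41, SE 0.0899, adjusted p 0.00197). In hypoxia it was at 38.0, 36.9 and 41.5 CPM (0.67, SE 0.0894, adjusted p 1.35e-05). All of these libraries exceeded the highest solvent library. In hypoxic BAY it was at 47.7, 47.0 and 46.1 CPM (0.26, adjusted p 0.054), with a blocked value of 0.27 and an adjusted p of 0.0161.

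SLC26A1, the sulfate-oxalate exchanger of the basolateral membrane, stood at 17.5, 17.9, 14.0, 12.4 and 16.2 CPM in solvent and at 8.38, 8.79, 7.83, 7.42 and 6.65 CPM with TGF-β1 (-1.05, SE 0.118, adjusted p 3.48e-07). It fell further with BAY on TGF-β1, to 6.54, 6.71, 4.28, 4.71 and 5.18 CPM (-0.49, SE 0.119, adjusted p 0.00399), with 1 library of overlap. Alone in normoxia BAY raised it, to 20.8, 20.9 and 20.5 CPM (0.42, SE 0.114, adjusted p 0.00835). The treated libraries of that comparison were all above solvent. In hypoxic BAY, SLC26A1 was at 20.3, 20.9 and 15.2 CPM against 15.4, 15.8 and 13.3 CPM in hypoxic solvent (0.33, adjusted p 0.0631), and the blocked value was 0.32 with an adjusted p of 0.00552. Its gene overlaps IDUA and DGKQ, so its reads are uncertain. SLC13A3, a low dicarboxylate carrier, had means of 0.0811 CPM in solvent and 0.0103 CPM in hypoxia (-2.8, adjusted p 0.0025), where its 3 libraries held 2, 1 and 0 counts, so the size of that fall is poorly fixed. It passed the filter of this experiment only through the normoxic groups, where it was higher. SLC13A3 overlaps TP53RK on the same strand, at 14.1 CPM over all libraries, so its reads are uncertain.

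Of the amino acid transporters, SLC3A1 fell with TGF-β1 and SLC7A7 did not pass the test. SLC3A1, the heavy chain rBAT mutated in cystinuria, differed by set in solvent, at 4.31, 4.24 and 4.25 CPM in set 1 and at 2.43 and 2.17 CPM in set 2. With TGF-β1 it stood at 0.266 and 0.386 CPM in set 1 and at 0.116, 0.141 and 0.108 CPM in set 2 (-4.14, SE 0.349, adjusted p 9.39e-09). The fall was present within each set, at -3.73 and -4.26. In hypoxia SLC3A1 was at 2.3, 1.76 and 2.07 CPM (-0.78, adjusted p 0.00599), which overlapped with the set 2 solvent libraries, and against those the value was -0.17 with an adjusted p of 0.369. In normoxic BAY it was at 4.89, 5.43 and 5.3 CPM (0.59, adjusted p 0.0288), a call lost against solvent set 1 (0.29, adjusted p 0.065), without solvent replicate 3 (0.49, adjusted p 0.0507) and without any 1 of the BAY libraries (0.55 to 0.62, adjusted p 0.0661 to 0.107). SLC3A1 overlaps PREPL and, on the same strand, a protein-coding gene at 2.13 CPM over all libraries, so its reads are uncertain.

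SLC7A7, the light chain of a basolateral exchanger for cationic amino acids, ranged from 19.7 to 26.0 CPM in solvent and from 23.6 to 33.9 CPM with TGF-β1 (0.24, adjusted p 0.0722). The difference was called within each set (0.41 and 0.23, adjusted p 1.94e-05 and 0.000736). BAY lowered SLC7A7 on TGF-β1, to 21.9, 21.6, 17.1, 15.6 and 16.7 CPM (-0.55, SE 0.111, adjusted p 0.000987), and in normoxia, to 16.4, 16.2 and 17.1 CPM (-0.43, adjusted p 0.00749). Both BAY groups lay below their comparison group, and the second call was lost against solvent set 2 (-0.28, adjusted p 0.162). SLC7A9, the light chain that partners rBAT, was low, with means between 0.0762 and 0.152 CPM, and was called in no comparison.

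The ABC efflux pumps were all called in hypoxia and with TGF-β1, beside 60.8% and 62.0% of all genes called. With TGF-β1, 3 of the 4 fell, beside 32.5% of all genes. ABCC4 (MRP4), which exports cyclic nucleotides and urate, stood at 111, 109, 107, 107 and 105 CPM in solvent and at 41.1, 40.1, 38.7, 37.6 and 37.5 CPM with TGF-β1 (-1.52, SE 0.0335, adjusted p 3.38e-17). ABCB1 (P-glycoprotein, MDR1) stood at 66.3, 67.3, 55.8, 57.8 and 66.6 CPM in solvent and at 27.6, 26.9, 25.1, 24.1 and 23.8 CPM with TGF-β1 (-1.35, SE 0.0539, adjusted p 1.4e-13). ABCC2 (MRP2), the apical conjugate pump, stood at 5.26, 5.0, 4.06, 3.92 and 4.98 CPM in solvent and at 1.44, 1.34, 0.879, 1.16 and 1.1 CPM with TGF-β1 (-2.02, SE 0.121, adjusted p 4.8e-11). None of these groups overlapped. ABCG2 (BCRP), a urate and drug pump, went the other way, from 0.392, 0.27, 0.354, 0.41 and 0.26 CPM in solvent to 1.17, 1.25, 0.868, 0.761 and 1.23 CPM with TGF-β1 (1.59, SE 0.176, adjusted p 2.51e-07).

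BAY on top of TGF-β1 lowered ABCB1 and raised ABCG2. ABCB1 was at 13.1, 12.9, 12.4, 12.8 and 12.1 CPM with both agents (-0.99, SE 0.055, adjusted p 2.2e-10). ABCG2 was at 2.14, 2.23, 2.42, 2.37 and 2.17 CPM (1.12, SE 0.167, adjusted p 4.71e-05), its highest group in the series. The groups of both genes were clear of TGF-β1 alone. In hypoxia ABCC2 stood at 2.46, 2.3 and 2.08 CPM (-1.04, SE 0.12, adjusted p 1.55e-06), ABCG2 at 0.172, 0.17 and 0.163 CPM (-1.01, SE 0.275, adjusted p 0.00455), ABCB1 at 53.9, 56.6 and 51.3 CPM (-0.23, adjusted p 0.00185) and ABCC4 at 100, 101 and 91.3 CPM (-0.16, adjusted p 0.00384). The last 2 calls, both under 1.2-fold, were lost against solvent set 2 (-0.08 and -0.13, adjusted p 0.225 and 0.0503). BAY lowered ABCB1 in normoxia, to 46.4, 47.0 and 49.6 CPM (-0.39, SE 0.0562, adjusted p 4.43e-05), and in hypoxia, to 38.5, 37.4 and 35.5 CPM (-0.55, SE 0.063, adjusted p 5.36e-06). ABCC4 fell with BAY in hypoxia, to 82.2, 79.7 and 72.8 CPM (-0.33, SE 0.0474, adjusted p 5.13e-05), and the difference from its normoxic response (0.08, adjusted p 0.162) was itself called (-0.4, adjusted p 0.000475).

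All 4 brush border enzymes fell with TGF-β1, beside 32.5% of all genes, and all 4 fell again when BAY was added, beside 15.6%. None was called in hypoxia against all solvent libraries, beside 60.8% of all genes called. DPP4, the dipeptidyl peptidase and the most abundant of the 42 transcripts, lies at chr2:161992241-162074542. It stood at 668, 665, 541, 545 and 672 CPM in solvent, at 395, 421, 350, 367 and 366 CPM with TGF-β1 (-0.75, SE 0.0898, adjusted p 8.86e-07) and at 223, 226, 170, 164 and 169 CPM with both agents (-0.98, SE 0.0904, adjusted p 2.4e-07). Each step left the groups without overlap. Normoxic BAY alone gave 578, 593 and 588 CPM, within the solvent range (-0.07, adjusted p 0.433). In hypoxia DPP4 was at 627, 598 and 587 CPM (-0.05, adjusted p 0.539), and against the 2 solvent sets the value had opposite signs, -0.14 and 0.15 (adjusted p 0.00458 and 0.0119).

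GGT1, gamma-glutamyl transferase, stood at 199, 209, 184, 184 and 216 CPM in solvent, at 99.8, 102, 81.8, 84.1 and 77.4 CPM with TGF-β1 (-1.21, SE 0.0889, adjusted p 1.66e-09) and at 75.8, 75.1, 53.6, 59.3 and 63.9 CPM with both agents (-0.43, SE 0.0885, adjusted p 0.00133). Normoxic BAY alone raised it, to 300, 302 and 291 CPM (0.59, SE 0.0487, adjusted p 1.02e-07). BAY thus went with higher GGT1 without TGF-β1 and lower GGT1 with it, and all these groups were separate. GGT1 has near-identical copies and overlaps SNRPD3, so its reads are uncertain. MME (neprilysin) stood at 55.7, 56.9, 46.0, 48.7 and 55.8 CPM in solvent, at 25.5, 25.6, 23.2, 23.9 and 24.6 CPM with TGF-β1 (-1.15, SE 0.051, adjusted p 6.17e-13) and at 19.3, 19.3, 18.4, 18.4 and 17.7 CPM with both agents (-0.38, SE 0.0513, adjusted p 1.42e-05). In hypoxic BAY, MME was at 44.5, 46.2 and 36.9 CPM against 52.1, 51.2 and 49.8 CPM in hypoxic solvent (-0.27, adjusted p 0.0125), a call lost without hypoxic BAY replicate 3 (-0.18, adjusted p 0.06). ANPEP, aminopeptidase N, was low, with means of 0.306 CPM in solvent, 0.116 with TGF-β1 (-1.44, adjusted p 0.00118) and 0.0491 CPM with both agents (-1.22, adjusted p 0.0258). The last ANPEP call was lost without TGF-β1 replicate 4 (-0.94, adjusted p 0.0873) or without both-agents replicate 2, 3 or 4 (-1.04 to -1.11, adjusted p 0.0618 to 0.0675).

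**Figure D4:**
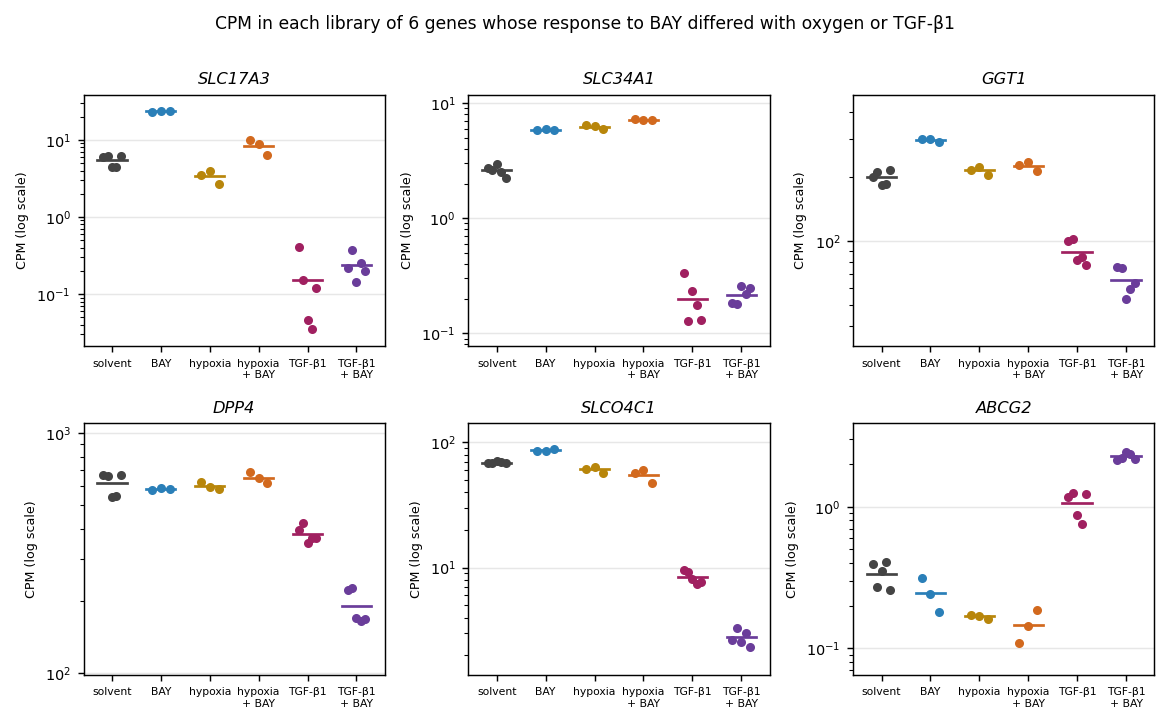
CPM in each of the 24 libraries on log axes (points, with group means as lines) for SLC17A3, SLC34A1, GGT1, DPP4, SLCO4C1 and ABCG2. SLCO4C1 stood at 85.0 to 88.6 CPM with BAY alone, above solvent, and at 2.34 to 3.33 CPM with TGF-β1 and BAY, below TGF-β1 alone.

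Whether the response to BAY differed with oxygen or with TGF-β1 was tested as an interaction. For oxygen, 11 of 33 genes were called, 2 higher and 9 lower, beside 16.8% of all genes, 8.83% higher and 7.92% lower, and for TGF-β1, 11 of 34 were called, 3 higher and 8 lower, beside 20.7%, 13.7% higher and 7.08% lower. SLCO4C1 had the largest TGF-β1 interaction in absolute size (-1.89, SE 0.107, adjusted p 8.38e-10): BAY went with higher levels alone and lower ones on TGF-β1. GGT1 (-1.0, adjusted p 3.21e-05) and SLC26A1 (-0.9, adjusted p 0.00121) had the same pattern of a rise alone and a fall on TGF-β1. DPP4 (-0.89, adjusted p 0.000114) and ABCB1 (-0.59, adjusted p 3.94e-05) fell more with BAY when TGF-β1 was present, and ABCG2 rose (1.58, adjusted p 0.000331). With oxygen, SLC17A1 (-1.05, SE 0.194, adjusted p 0.00176) and SLC34A1 (-0.97, SE 0.124, adjusted p 8.06e-05) rose with BAY in normoxia and were not called in hypoxia. SLC17A3 rose in both, and the difference between its responses (-0.82, adjusted p 0.0266) was lost without any 1 of 5 libraries, the 3 normoxic BAY libraries and the first or second hypoxic solvent library (-0.71 to -0.81, adjusted p 0.0624 to 0.0789).

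By number of comparisons, 3 of the 34 tested genes were called in all 5, SLC20A1, SLC20A2 and ABCB1, 5 in 4, 14 in 3, 7 in 2, 4 in 1 and 1 in none. Single comparisons called 29.5% to 62.0% of all genes, and the matching split over all genes was not counted. AQP1, called in 1, was tested only in the TGF-β1 experiment. Of the SLC20A2 calls, that for BAY in hypoxia was lost in 8 of 14 alternatives and that for BAY on TGF-β1 in 7 of 19. In 14 of the 28 expressed genes the lowest group mean was that of TGF-β1 with BAY, and in 6 that of TGF-β1 alone. The highest group mean was that of normoxic BAY in 10 of the 28. These counts describe the group means and carry no test.

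Genes that work beside the transporters were read from 3 lists. Of 22 endocytosis and scaffold partners, 9 fell and 7 rose with TGF-β1 (72.7% called), beside 62.0% of all genes called, 29.5% higher and 32.5% lower. PDZK1, the scaffold that anchors brush border carriers, went from a mean of 119 ± 13.5 to 19.9 ± 4.71 CPM (SD, n = 5 each; -2.63, adjusted p 5.03e-10), and FCGRT, the neonatal Fc receptor that recycles albumin, from 53.4 to 22.4 CPM (-1.31, adjusted p 4.59e-13). Of 36 tested among 48 other proximal tubule enzymes and transporters, 19 fell and 11 rose (83.3% called), and those that fell included DDC, which makes dopamine (-4.88, adjusted p 4.76e-15). Of 18 regulators tested, 10 fell and 6 rose (88.9% called), with the largest falls in PAX2, a kidney developmental factor (-2.92, adjusted p 4.78e-13), and the kidney cadherin CDH16 (-2.68, adjusted p 7.09e-10).

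In hypoxia the partners gave 7 higher and 12 lower of 22, the enzymes and transporters 13 higher and 14 lower of 35, and the regulators 9 higher and 7 lower of 19. These are 86.4%, 77.1% and 84.2% called, beside 60.8% of all genes, 29.2% higher and 31.6% lower. The glucose carrier SLC2A1 (GLUT1) went from a mean of 169 to 1390 CPM in hypoxia (3.03, adjusted p 1.48e-14), opposite to SLC2A2, and PCK1, an enzyme of glucose synthesis, from 0.34 to 1.33 CPM (1.96, adjusted p 1.16e-05). The scaffold NHERF1 (-1.06, adjusted p 3.71e-10) and GIPC1 (-0.76, adjusted p 1.22e-10) fell, while PTH1R, the parathyroid hormone receptor (1.02, adjusted p 1.23e-05), and PAX2 (0.9, adjusted p 5.05e-08) rose. In normoxic BAY the partners gave 4 higher and 8 lower of 22, the enzymes and transporters 12 and 11 of 35, and the regulators 9 and 6 of 19. These are 54.5%, 65.7% and 78.9% called, beside 43.9% of all genes, 20.6% higher and 23.3% lower. PCK1 rose to 4.28 CPM (3.66, adjusted p 4.07e-08), PDZK1 to 168 CPM (0.51, adjusted p 9.01e-06) and FGFR1 to 185 CPM (0.78, adjusted p 0.000152). SLC16A9 (-1.93, adjusted p 2.17e-05) and NHERF1 (-0.5, adjusted p 4.11e-06) fell.

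Markers of other cell types were in part present. UMOD, PVALB, AQP2 and CD3E had no counts in any library, and 6 of 10 loop and distal tubule, 4 of 10 collecting duct, 2 of 8 podocyte, 5 of 8 endothelial, 3 of 9 fibroblast and 4 of 8 immune markers were under 0.1 CPM in every group. In the same order, 2, 3, 3, 3, 6 and 4 markers reached a mean of 1 CPM in some group. The summed collecting duct markers ranged from 38.5 to 40.6 CPM in solvent and from 9.31 to 11.5 CPM with TGF-β1, those of fibroblasts and pericytes from 280 to 319 and from 407 to 472 CPM, and those of the loop and distal tubule from 12.4 to 13.7 and from 5.15 to 5.73 CPM. Of the 6 fibroblast and pericyte markers tested, 2 rose and 2 fell with TGF-β1. Of the 6 collecting duct markers tested, 1 rose and 3 fell, and the 3 tested of the loop and distal tubule fell. Of all genes, 29.5% were called higher and 32.5% lower with TGF-β1. The podocyte sum ranged from 163 to 175 CPM in solvent, from 83.2 to 105 CPM with TGF-β1, from 510 to 535 CPM in hypoxia and from 1260 to 1390 CPM in hypoxic BAY. Of the 5 podocyte markers tested, 1 rose and 3 fell in hypoxia, and 1 rose and 3 fell with TGF-β1. With BAY in hypoxia 1 rose and 2 fell. In the same order, 60.8%, 62.0% and 37.9% of all genes were called. The podocyte sum in hypoxia thus shows no common rise of its markers. The immune sum was 365 to 391 CPM in solvent, 224 to 256 CPM with TGF-β1 and 246 to 256 CPM in normoxic BAY. In both comparisons 4 of the 4 immune markers tested fell, beside 32.5% and 23.3% of all genes lower. In solvent and normoxic BAY the endothelial sum was 30.8 to 42 and 31.3 to 34.8 CPM. The part of these markers in the results above was not tested.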

How the data were processed

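RNA-seq was made from 24 HK-2 libraries in 6 groups. The authors deposited estimated counts per Ensembl gene, made with Salmon on GRCh38 (hg38) per the submitters' processing notes, which also name DESeq2. The Salmon version, annotation release and strand setting are not stated in those notes. Overlaps with other genes were taken from whole gene spans, introns included. Whether exons are shared was not examined, so how far reads could mix is not known. Of the values above 0, 48.6% were not whole and were rounded. IDs without a symbol held 4.36% of counts. Library totals of 78862528 to 105571250 counts set the precision, and intervals or limits cover counting error only.

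Levels are CPM scaled by TMM over all libraries. Tests used edgeR 4.0.16 (R 4.3.3) robust quasi-likelihood fits after its expression filter, 1 fit for the hypoxia experiment (4 groups, 14 libraries) and 1 for the TGF-β1 experiment (4 groups, 18 libraries), 2-sided, with Benjamini-Hochberg adjustment across every gene fitted, at a threshold of 0.05. The test was tried on simulated data of 2 groups with 200 genes changed. The reported fits have 4 groups and far more genes called, so no error rate is read from the simulation. Per-library values are given for expressed genes called with at least a 1.5-fold change in 1 of the 5 comparisons, and ranges or means for the others. From the companion lists, the 2 called genes of at least 1 CPM with the largest change are named, except for items that are not reported here. The members and lists were chosen with earlier results of these data known.

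Same-numbered libraries of hypoxic solvent and hypoxic BAY deviated together (r = 0.121, 0.139 and 0.131 across genes), so the blocked value is given where it changes a call there. Alternatives were DESeq2 1.42.0, no filter, the replicate block, other libraries in the fit, the 2 library sets, leaving out each replicate, other expression thresholds and, chosen after seeing the data, library totals without TMM.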

Additional observations from a re-analysis of the deposited data

Results flagged for a closer look

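Of 99 groups of 5 libraries examined, 4 held a library far from the other 4, and chance flags about 1 in 20 groups. AQP1 was at 0.0325 CPM in solvent replicate 5 and at 0.0191 to 0.0208 CPM in the others. LRP2 was at 0.0553 CPM in TGF-β1 replicate 1 and at 0 to 0.0116 CPM in the others. SLC20A2 was at 12.1 CPM in replicate 5 of TGF-β1 with BAY and at 13.4 to 13.7 CPM in the others. SLC47A2 was at 0.184 CPM in solvent replicate 5 and at 0.255 to 0.28 CPM in the others.

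The response to BAY differed with oxygen or with TGF-β1 in 22 interaction tests by edgeR's quasi-likelihood test with Benjamini-Hochberg adjustment. With hypoxia the log2 response was lower for SLC17A1 (-1.05, adjusted p 0.00176), SLC34A1 (-0.97, adjusted p 8.06e-05), SLC17A3 (-0.82, adjusted p 0.0266), GGT1 (-0.53, adjusted p 0.000187), AMN (-0.52, adjusted p 0.0113) and SLCO4C1 (-0.49, adjusted p 0.00129). It was also lower for SLC22A5 (-0.41, adjusted p 0.00186), ABCC4 (-0.4, adjusted p 0.000475) and SLC20A1 (-0.2, adjusted p 0.0122), and higher for SLC7A7 (0.56, adjusted p 0.0376) and SLC20A2 (0.34, adjusted p 0.0193). With TGF-β1 it was lower for SLCO4C1 (-1.89, adjusted p 8.38e-10), AQP1 (-1.68, adjusted p 0.0129), SLC34A1 (-1.02, adjusted p 0.016), GGT1 (-1.0, adjusted p 3.21e-05), SLC26A1 (-0.9, adjusted p 0.00121) and DPP4 (-0.89, adjusted p 0.000114). It was also lower for ABCB1 (-0.59, adjusted p 3.94e-05) and SLC22A5 (-0.42, adjusted p 0.00024), and higher for ABCG2 (1.58, adjusted p 0.000331), SLC47A2 (1.57, adjusted p 0.0417) and SLC20A2 (0.43, adjusted p 7.22e-05). Over the 21 alternatives run for each oxygen interaction, the call was lost in 13 for SLC7A7 (0.43 to 0.68), 7 for SLC17A3 (-1.09 to -0.63), 4 for SLC20A1, 3 for SLC20A2, 2 for AMN and 1 for SLC17A1, and in none for the other 5 genes. Over the 25 run for each TGF-β1 interaction, it was lost in 12 for the low gene SLC47A2 (1.27 to 1.81), in 1 each for AQP1 and SLC34A1, and in none for the other 8. The AQP1 interaction rests on a BAY response without TGF-β1 between libraries of 2 to 3 and of 3 to 9 counts, and the gene passed the filter only through the TGF-β1 groups, so it gives no firm size or call. Without normoxic BAY replicate 3 the AQP1 value was -1.26 with an adjusted p of 0.204, and within set 2 the SLC34A1 value was -0.64 with an adjusted p of 0.1.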

How the results depend on the processing

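No value called in the reported fits changed sign under any alternative run, and uncalled below means not called in those fits. Some of these values were called within a set. DPP4 in hypoxia was called lower within set 1 and higher within set 2. With BAY in normoxia, DPP4, SLC34A2 and SLC9A3 were called within set 1, and their sign turned within set 2 without a call. Within set 1, BAY in hypoxia gave 16 genes called, beside 43.0% of all genes in place of 37.9%. The oxygen interaction gave 6 with all 24 libraries in 1 fit, beside 15.1%, and 17 within set 1, beside 27.6%, in place of 16.8%. The TGF-β1 interaction gave 21 within set 1, beside 32.7% in place of 20.7%. The cause was not tested. Leaving out 1 library at a time gave 22 to 25 genes for hypoxia, 15 to 18 for BAY in normoxia, 6 to 12 for BAY in hypoxia, 29 to 31 for TGF-β1, 13 to 16 for BAY on TGF-β1, 8 to 13 for the oxygen interaction and 9 to 13 for the TGF-β1 interaction. The shares of all genes called there, in the same order, were 54.9% to 60.6%, 35.1% to 45.1%, 31.5% to 34.4%, 60.2% to 61.0%, 26.5% to 28.4%, 11.7% to 18.4% and 16.3% to 21.9%. With the set as an additive term, BAY on TGF-β1 gave 18 genes in place of 16, beside 42.8% of all genes in place of 29.5%. With the replicate block the counts were 23, 17, 11, 31, 16, 12 and 14 in that order, and it changed no call in the paired hypoxic comparison beyond the 5 genes given above. Of all genes, the block called 57.1%, 39.3%, 36.9%, 64.3%, 33.4%, 14.3% and 27.4% in the same order. The block turned the sign of the uncalled TGF-β1 interactions of LRP2 (0.16), SLC20A1 (0.05) and SLC26A6 (-0.02). Within set 1 the sign of uncalled values turned for CUBN in hypoxia (0.02), for DAB2 with BAY in normoxia (-0.03), for BAY on TGF-β1 in ABCC2 (-0.05), LRP2 (-0.35), SLC17A1 (-0.15), SLC34A1 (-0.34) and SLC9A3 (-0.13), for the oxygen interaction in DAB2 (0.01) and SLC26A1 (0.07) and for the TGF-β1 interaction in SLC26A6 (-0.24). Within set 2 it turned in hypoxia for DPP4 (0.15), MME (0.11), SLC26A1 (0.17) and SLC7A7 (0.09), with BAY in normoxia for DPP4 (0.11), SLC34A2 (0.0) and SLC9A3 (-0.13), with TGF-β1 for SLC34A3 (-0.23) and with BAY on TGF-β1 for SLC13A3 (0.14). There it also turned for the oxygen interaction of ABCC2 (-0.07), ANPEP (-0.04), SLC22A4 (-0.03), SLC26A6 (0.07) and SLC34A2 (-0.26) and the TGF-β1 interaction of LRP2 (1.39), SLC13A3 (0.13), SLC22A4 (-0.2), SLC2A2 (-0.06) and SLC9A3 (0.22). Library totals without TMM turned CUBN with BAY in hypoxia (-0.02), the oxygen interaction of SLC34A3 (-0.05) and the TGF-β1 interactions of SLC22A4 (-0.03) and SLC26A6 (-0.05). Leaving out 1 library turned uncalled values with BAY in hypoxia for ABCC2 (-0.22 to 0.0), CUBN (-0.06 to 0.11), DAB2 (-0.1 to 0.06), SLC17A1 (-0.23 to 0.02) and SLC47A2 (-0.55 to 0.0). With BAY on TGF-β1 it did so for DAB2 (-0.07 to 0.02), LRP2 (-0.21 to 2.21), SLC13A3 (-0.61 to 0.25), SLC17A1 (-0.19 to 0.51), SLC3A1 (-0.4 to 0.15), SLC4A4 (-0.08 to 0.01) and SLC9A3 (-0.05 to 0.12). For the oxygen interaction it did so for ABCC2 (-0.01 to 0.21), ANPEP (-0.01 to 0.37), DAB2 (-0.15 to 0.01), SLC13A3 (-0.29 to 1.0), SLC26A1 (-0.18 to 0.04) and SLC34A3 (-0.24 to 0.45). For the TGF-β1 interaction it did so for LRP2 (-0.83 to 1.58), SLC20A1 (-0.06 to 0.05), SLC22A4 (-0.02 to 0.11), SLC26A6 (-0.05 to 0.05) and SLC9A3 (-0.16 to 0.01), and elsewhere for SLC13A3 with BAY in normoxia (-0.1 to 0.69), SLC34A3 with TGF-β1 (-0.02 to 0.38) and SLC7A7 in hypoxia (-0.14 to 0.04). At a threshold of 0.5 CPM, 30 genes counted as expressed. The low genes rest on few counts, which limits the size of their changes.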
